A study of Homo sapiens with 4 samples.

Results

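TRiC, also called CCT, is the cytosolic chaperonin, and its 8 subunits are the products of TCP1 (alpha), CCT2 (beta), CCT3 (gamma), CCT4 (delta), CCT5 (epsilon), CCT6A (zeta), CCT7 (eta) and CCT8 (theta). These genes were taken by name from the table of expression values, in which all 8 were present once each, out of 33845 genes. Their values were compared between SW620 cells stably transfected with a Flag-GAP43 plasmid (2 libraries) and SW620 cells stably transfected with a control plasmid (2 libraries), all at passages 12 to 15. SW620 is an established line of colorectal cancer cells taken from a metastasis in a lymph node. GAP43 is a protein of the inner face of the plasma membrane that growing axons make in large amounts. The GAP43 plasmid carried neomycin resistance. Neither the number of clones nor separate cultures for the 2 libraries of a group are stated in the sources used here, so p-values measure only the spread between these libraries, which may be technical.

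TRiC is a double ring in which each ring holds 1 copy of each subunit around a central chamber. Newly made proteins enter the chamber, ATP binding and hydrolysis close its built-in lid, and the protein folds inside. Actins and tubulins depend on it, as do many proteins with WD40 repeats, and prefoldin delivers some of these clients to the ring. In the yeast and bovine complexes TCP1, CCT2, CCT4 and CCT5 bind ATP more tightly than CCT3, CCT6A, CCT7 and CCT8. Since a ring needs equal numbers of all subunits, the levels of the 8 mRNAs relative to one another were measured as well as their difference between the groups.

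Levels are given in FPKM, fragments per kilobase of the gene model scaled to the size of the library, as deposited. GAP43 itself had 16.3 and 9.89 FPKM in the GAP43 libraries, against 4.40 and 4.14 FPKM in the Control libraries (limma, log2 fold change 1.38, unadjusted p = 0.00117, adjusted p = 0.692). The libraries held 17473071 to 21883137 recovered fragments. GAP43 replicate 2 was the smallest library and listed 27549 genes above 0 FPKM, where the other libraries listed 25581 to 26989. The epithelial genes EPCAM, KRT8 and KRT18 were at 104 FPKM or more in every library, KRT20 was at 0.172 to 0.308 FPKM, and the 6 listed markers of fibroblasts, leukocytes and endothelium were all below 1 FPKM. Bulk RNA cannot tell a lower level in every cell from fewer cells with the transcript.

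All 8 subunit genes were abundant, and in FPKM 7 of the 8 had both GAP43 libraries below both Control libraries. TCP1 was the exception. When recovered fragments were scaled to library size and transcript length, CCT4 overlapped as well, with 104 in GAP43 replicate 1 and 103 in Control replicate 2. The means of the 8 genes in the GAP43 libraries were 0.710 (CCT7) to 0.965 (TCP1) times those in the Control libraries. The geometric mean of the 8 was 114 and 86.4 FPKM in the GAP43 libraries, against 123 and 133 FPKM in the Control libraries. The 8 genes together took 0.389% and 0.335% of all fragments with GAP43, against 0.415% and 0.417% with Control plasmid.

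None of the 8 passed an unadjusted p under 0.05 by limma on log2(FPKM + 1), and none an adjusted p (lowest unadjusted p = 0.0683, adjusted p = 0.692, for CCT7), and none passed by voom on the recovered fragments. Of the 13507 genes that averaged 1 FPKM or more, 2.84% were lower with GAP43 and 3.05% were higher by the same unadjusted threshold, and 0% passed the adjusted p in either direction. The 383 lower and 412 higher genes became 213 lower and 577 higher when each library was scaled to the same total FPKM. A log2 fold change below 0 was found for all 8 subunit genes and 55.5% of all genes tested. Both GAP43 libraries lay below both Control libraries for 24.1% of all genes tested. Among the 1420 protein-coding genes that averaged 30 FPKM or more, which the subunit genes all did, this share was 57.8%, so that most abundant genes showed the same arrangement. In this abundant set 4.3% had both GAP43 libraries above both Control libraries, the log2 fold change was below 0 for 87.1%, while 5.35% passed the unadjusted threshold as lower and 0.493% as higher. The median log2 fold change was -0.41 over the 8 subunit genes, -0.31 over these abundant genes and -0.04 over all genes tested. Of the abundant genes, 17.6% had a lower log2 fold change than CCT7 and 82.3% a lower one than TCP1.

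**Figure D1:**
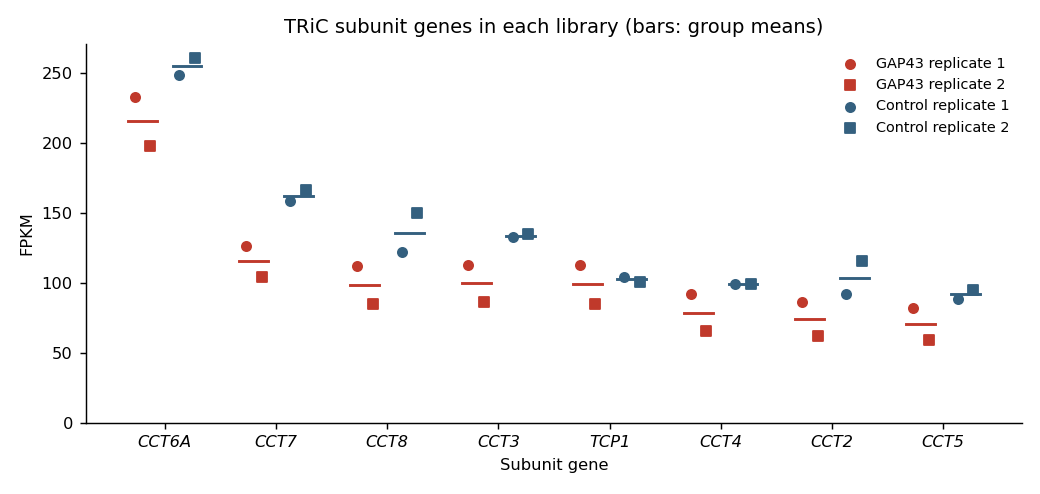
FPKM (y axis) of each TRiC subunit gene (x axis, ordered by the mean of the 4 libraries) in the 2 GAP43 libraries (red) and the 2 Control libraries (blue), with a bar at each group mean. The GAP43 points lie below the Control points for all genes but TCP1, where 113 and 84.9 FPKM enclose the Control values of 104 and 101 FPKM.

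Of the subunits that bind ATP tightly, TCP1, the founding member of the family (ENSG00000120438, GRCh38 chromosome 6 from 159778498 to 159789749, minus strand), had 113 and 84.9 FPKM in the GAP43 libraries, against 104 and 101 FPKM in the Control libraries. The groups overlapped, since GAP43 replicate 1 was the highest and GAP43 replicate 2 the lowest of the 4 libraries. Its log2 fold change of -0.07 (standard error 0.23) turned to 0.052 at equal total FPKM, 0.083 by voom on the recovered fragments and 0.14 without GAP43 replicate 2, so no direction is given for this gene. CCT2, which is mutated in an inherited retinal disease (ENSG00000166226, chromosome 12 from 69585334 to 69601570, plus strand), had 86.3 and 62.1 FPKM in the GAP43 libraries, against 92.0 and 116 FPKM in the Control libraries. The groups did not overlap, but the Control replicates differed by 0.33 on the log2 scale, and the gap between GAP43 replicate 1 and Control replicate 1 was smaller than that. Its log2 fold change was -0.49 (standard error 0.26, unadjusted p = 0.103).

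CCT4, whose Control libraries were almost equal (ENSG00000115484, chromosome 2 from 61868089 to 61888804, minus strand), had 92.1 and 65.4 FPKM in the GAP43 libraries, against 99.3 and 99.3 FPKM in the Control libraries. GAP43 replicate 2 made up most of the difference, at -0.60 from the Control mean on the log2 scale, where GAP43 replicate 1 was at -0.11. CCT5, mutated in a hereditary sensory neuropathy (ENSG00000150753, chromosome 5 from 10249921 to 10266412, plus strand), had 82.1 and 59.2 FPKM in the GAP43 libraries, against 88.4 and 95.3 FPKM in the Control libraries. It was the lowest of the 8 in FPKM in every library. The log2 fold changes of CCT4 and CCT5 were -0.35 and -0.39 (standard error 0.24 for both, unadjusted p = 0.195 and 0.15 by limma).

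Of the subunits that bind ATP less tightly, CCT7 (ENSG00000135624, chromosome 2 from 73233420 to 73253021, plus strand) had 126 and 105 FPKM in the GAP43 libraries, against 159 and 166 FPKM in the Control libraries. These groups stood clear of each other, and CCT7 was the member for which GAP43 replicate 1 lay farthest below the Control mean, at -0.36 on the log2 scale, with GAP43 replicate 2 at -0.63. The log2 fold change of CCT7 was -0.50 (standard error 0.23, 95% interval -1.04 to 0.05, unadjusted p = 0.0683 by limma). With a constant prior variance in place of a trended one its unadjusted p was 0.0385, the only setting with all 4 libraries in which a member passed. CCT8 (ENSG00000156261, chromosome 21 from 29055805 to 29073797, minus strand) had 112 and 85.0 FPKM in the GAP43 libraries, against 122 and 150 FPKM in the Control libraries. Like CCT2, it had Control replicate 2 well above Control replicate 1, by 0.30 on the log2 scale, and its log2 fold change was -0.47 (standard error 0.25, unadjusted p = 0.110).

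CCT3 (ENSG00000163468, chromosome 1 from 156308968 to 156367873, minus strand) had 113 and 86.2 FPKM in the GAP43 libraries, against 133 and 135 FPKM in the Control libraries. The Control libraries were close together and both GAP43 libraries lay below them, with a log2 fold change of -0.43 (standard error 0.23, unadjusted p = 0.111). CCT6A (ENSG00000146731, chromosome 7 from 56051630 to 56063989, plus strand) had 233 and 198 FPKM in the GAP43 libraries, against 249 and 261 FPKM in the Control libraries. It was the most abundant of the 8 in every library, and its log2 fold change was -0.25 (standard error 0.24, unadjusted p = 0.342). CCT6B, the testis-enriched relative of CCT6A, had 0.136 and 0.166 FPKM in the GAP43 libraries and 0.175 and 0.263 FPKM in the Control libraries, so nearly all zeta subunit FPKM came from CCT6A.

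In FPKM, GAP43 replicate 2 had the lowest of the 4 values for all 8 genes. Per kilobase of transcript, scaled to recovered fragments, TCP1 was lowest in Control replicate 2, at 185, against 187 in GAP43 replicate 2. On the log2(FPKM + 1) scale the median of the 8 lay at -0.62 from the Control mean in GAP43 replicate 2 and at -0.20 in GAP43 replicate 1. Control replicate 2 lay 0.07 above Control replicate 1. For the abundant protein-coding genes the corresponding medians were -0.50 in GAP43 replicate 2 and -0.13 for GAP43 replicate 1. Without GAP43 replicate 2 the median log2 fold change of the members was -0.20, and without GAP43 replicate 1 it was -0.62. In each of these fits the remaining GAP43 library had to be taken as varying like the Control libraries. Counting error was small beside these differences. The 8 genes had 3612 to 20513 recovered fragments per library, and the exact Poisson 95% interval reached at most 3.32% from the value, covering counting error only.

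**Figure D2:**
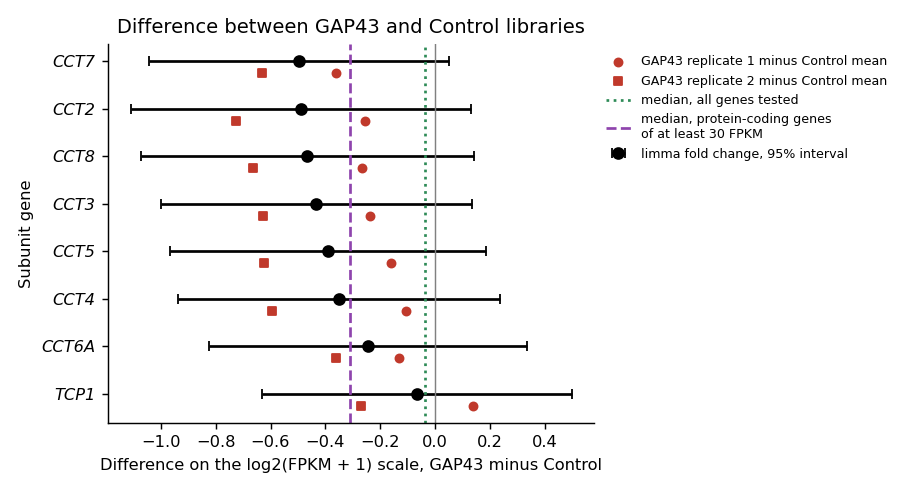
Difference between GAP43 and Control libraries on the log2(FPKM + 1) scale (x axis) for each subunit gene (y axis), as the limma fold change with its 95% interval (black) and as each GAP43 library minus the Control mean (red). All 8 intervals include 0, and the dashed line at -0.31 marks the median of protein-coding genes of at least 30 FPKM.

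The promoter windows of CCT7, TCP1 and CCT2 are shown because these genes stood at the 2 ends of the order of fold changes, CCT7 and CCT2 lowest and TCP1 highest. Each runs from 250 bases before to 50 bases after a RefSeq start on GRCh38.p14, 5′ to 3′ on the strand of the gene, with capitals at matches to the motifs given after them. The windows are CCT7 at chr2:73234058-73234357 (plus strand), TCP1 at chr6:159789553-159789852 (minus strand) and CCT2 at chr12:69585209-69585508 (plus strand). The RefSeq start of each lies inside the gene span given above, so bases before it can belong to the gene. The CCT7 window lies wholly inside its gene span.
CCT7: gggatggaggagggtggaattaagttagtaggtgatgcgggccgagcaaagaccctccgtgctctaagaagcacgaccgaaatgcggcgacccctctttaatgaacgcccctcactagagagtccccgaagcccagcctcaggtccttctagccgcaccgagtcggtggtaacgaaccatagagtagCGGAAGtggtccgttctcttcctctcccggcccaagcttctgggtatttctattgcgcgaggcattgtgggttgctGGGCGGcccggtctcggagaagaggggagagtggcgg
TCP1: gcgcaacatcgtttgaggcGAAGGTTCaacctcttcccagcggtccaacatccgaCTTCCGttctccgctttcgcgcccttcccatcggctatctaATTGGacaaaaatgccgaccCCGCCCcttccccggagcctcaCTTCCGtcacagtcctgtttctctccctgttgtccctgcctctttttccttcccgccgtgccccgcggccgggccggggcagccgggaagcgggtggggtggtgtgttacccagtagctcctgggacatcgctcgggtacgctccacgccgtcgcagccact
CCT2: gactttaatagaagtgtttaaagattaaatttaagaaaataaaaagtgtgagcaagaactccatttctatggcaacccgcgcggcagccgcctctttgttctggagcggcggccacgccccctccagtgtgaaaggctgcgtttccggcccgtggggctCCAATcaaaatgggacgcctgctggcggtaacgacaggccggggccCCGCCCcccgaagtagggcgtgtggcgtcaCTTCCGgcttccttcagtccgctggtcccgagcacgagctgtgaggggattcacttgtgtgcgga

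The motifs searched on both strands were the CCAAT box (CCAAT), the GC box (GGGCGG), the core bound by ETS factors (CGGAAG), the E-box bound by MYC and its partners (CACGTG) and a heat shock element dyad (GAANNTTC or TTCNNGAA). RefSeq gave 9 windows for 7 of the 8 genes, with none for CCT6A. Like that of CCT7, the windows of CCT3 and CCT5 and the other window of CCT2 lie wholly inside the gene span. The 2 windows of CCT4 share most of their bases. The ETS core was found in 6 of the 9 windows, against 19.5% of 35116 promoter windows of the same length. These 6 came from 5 of the 7 genes (CCT2, CCT5, CCT7, CCT8 and TCP1). In the windows shown the ETS core began at position -63 from the RefSeq start in CCT7, at -195 and -112 in TCP1 and at -15 in CCT2. The window of TCP1 and the first of CCT2 also held a CCAAT box, and CCT7 had none. It was present in 4 of the 9 windows, from 4 of the 7 genes, and in 34.6% of all windows. The GC box was in 6 of the 9 windows, from 5 of the 7 genes, and in 45.0% of all windows. The heat shock dyad was in 3 of the 9 windows and 13.5% of all windows. These 3 came from 3 of the 7 genes (CCT2, in its other window, CCT4 and TCP1). The E-box was in none of the 9 windows and in 7.26% of all windows. These are matches of letters and say nothing of binding in these cells.

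The subunits were then compared with each other within each library, since such a ratio does not depend on how a library was scaled. CCT6A stood highest, followed by CCT7, and CCT5 lowest in each of the 4 libraries. In FPKM the highest subunit was 2.84 and 3.35 times the lowest with GAP43, against 2.82 and 2.74 times with Control plasmid. The coefficient of variation among the 8 levels was 40.3% and 48.4% with GAP43 and 40.7% and 39.2% with Control plasmid, and over the mean of the 4 libraries it was 41.2% for the 8 and 19.6% for the 7 without CCT6A. Over the 4 libraries only CCT6A was separated from its neighbor, CCT7, with no overlap of their ranges. Each other pair of neighbors in the order CCT7, CCT8, CCT3, TCP1, CCT4, CCT2, CCT5 had ranges that overlapped. Within libraries, CCT7 stood above CCT8, CCT3 above TCP1, TCP1 above CCT4 and CCT2 above CCT5 in all 4. CCT8 stood above CCT3 in 1 of the 4 and CCT4 above CCT2 in 3 of the 4.

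The order depended on the length used. The gene models of the table run from 2830 bases (CCT4) to 5839 bases (CCT5), and all coding sequences from 1593 to 1668 bases. When recovered fragments were divided by the length of the RefSeq-matched transcript of GENCODE release 29 with the longest coding sequence, CCT6A and CCT7 stayed first and second, and CCT4 moved to the last place, with group means of 93.1 for GAP43 and 107 for Control in the same scaled units, where CCT6A had 327 and 351. On that scale the coefficient of variation over the mean of the 4 libraries was 36.3%. Per kilobase of coding sequence it was 41.1%, and TCP1 ranked 3 of 8. These lengths differ between genes but not between libraries, so dividing by them leaves each gene's own fold change as it is. Scaling to the recovered fragments of each library, however, changed the ratio of the groups. TCP1 had group means of 206 for GAP43 and 194 for Control per kilobase of transcript, where its means in FPKM were 99.0 and 103.

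**Figure D3:**
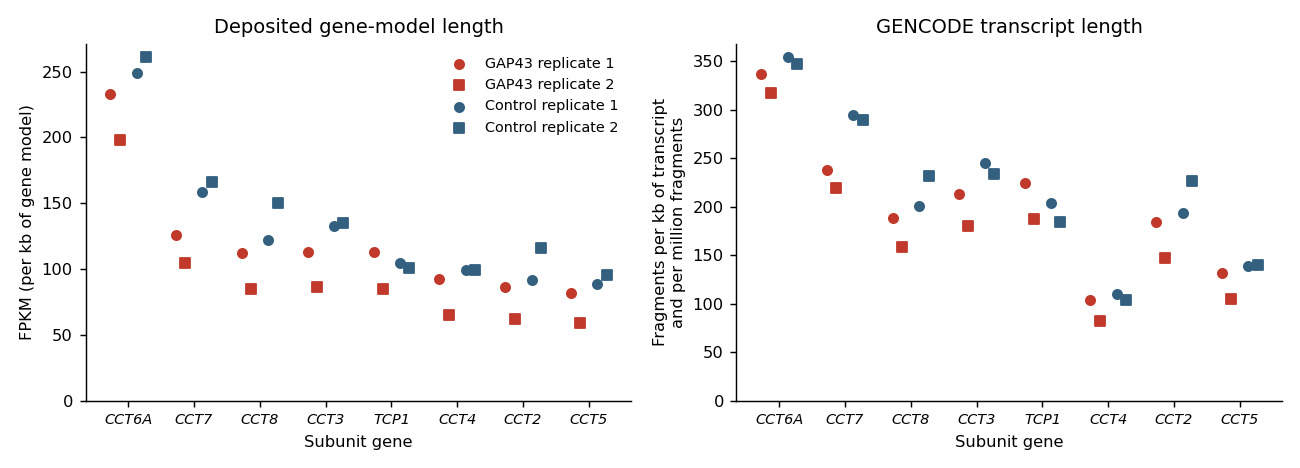
Level of each subunit gene (x axis, in the order of FPKM) in the 2 GAP43 libraries (red) and the 2 Control libraries (blue), as FPKM on the deposited gene-model length (left y axis) and as recovered fragments per kilobase of GENCODE transcript, scaled to library size (right y axis). CCT6A is highest on both, while CCT4 is sixth by mean FPKM and eighth per transcript.

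Relative to the geometric mean of the 8 genes in the same library, TCP1 stood at 0.996 and 0.983 with GAP43, against 0.845 and 0.760 with Control plasmid. TCP1 was thus the subunit gene whose place within the set differed most, by 0.30 on the log2 scale, while its Control replicates differed by 0.15. CCT6A, with 2.05 and 2.30 for GAP43 against 2.02 and 1.96 for Control, was the other gene above in both GAP43 libraries. CCT7 had 1.11 and 1.21 with GAP43, against 1.29 and 1.25 with Control plasmid. CCT3 had 0.996 and 0.998 with GAP43, against 1.07 and 1.01 with Control plasmid. These were the 2 of the 8 below in both, and the remaining 4 overlapped. The 8 ratios are tied, since their geometric mean is 1. Of all genes tested, the ratio to the same geometric mean was above in both GAP43 libraries for 50.1% and below for 4.25%.

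The ratio of CCT7 to TCP1 was 1.12 and 1.23 with GAP43, against 1.52 and 1.65 with Control plasmid. CCT2 to TCP1, which both bind ATP tightly, gave 0.763 and 0.731 with GAP43, against 0.883 and 1.15 with Control plasmid. CCT7 to CCT6A, of the other 4 subunits, gave 0.542 and 0.528 with GAP43, against 0.637 and 0.638 with Control plasmid. These 3 pairs were chosen after the values were seen, among 28 pairs of subunits, of which 12 had ratios that did not overlap between the groups. The ratio of CCT4 to CCT5 was 1 of those that overlapped (exact 2-sided permutation test, p = 1). For the 3 pairs given, the groups did not overlap and the exact 2-sided permutation test gave p = 0.333 for each, the smallest that 2 libraries against 2 allow. The share of ratios without overlap among other pairs of genes was not computed, so the 12 of 28 has no background beside it.

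**Figure D4:**
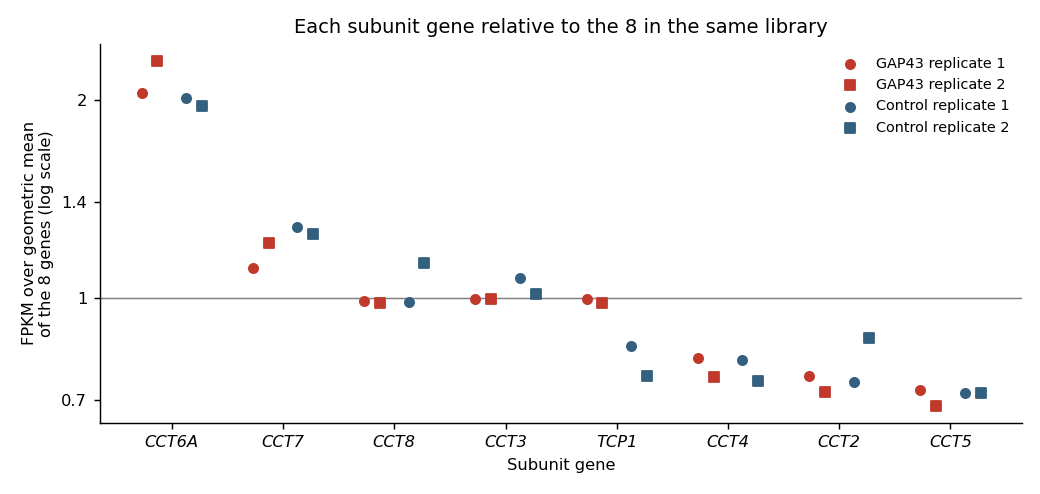
FPKM of each subunit gene over the geometric mean of the 8 in the same library (y axis, log scale) in the 2 GAP43 libraries (red) and the 2 Control libraries (blue). TCP1 lies close to 1 in both GAP43 libraries and at 0.845 and 0.760 in the Control libraries, whereas CCT4 and CCT5 overlap between the groups.

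Reads of some members can be shared with other genes. ACAT2, a thiolase of the cytosol, ends on the opposite strand inside the last 558 bases of TCP1, and no step that marks the strand is named for these libraries. It had 7.55 and 7.43 FPKM in the GAP43 libraries and 7.36 and 11.4 FPKM in the Control libraries. COMMD1, a regulator of copper transport and NF-kappaB, overlaps the first 81 bases of CCT4 head to head and was lower in the GAP43 libraries, at 4.17 and 4.63 FPKM, against 6.71 and 5.73 FPKM in the Control libraries (limma, log2 fold change -0.42, unadjusted p = 0.0447, adjusted p = 0.692). The call was lost without Control replicate 1, Control replicate 2 or GAP43 replicate 1 (unadjusted p = 0.309, 0.114 and 0.0999) and at equal total FPKM, by voom, with a constant prior variance and with the replicate block (unadjusted p = 0.119, 0.208, 0.0617 and 0.0952). TSACC, inside CCT3, had 1.14 to 1.65 FPKM in the 4 libraries, and SNORA22, a snoRNA in an intron of CCT6A, 2.25 to 6.68 FPKM. AC107081.5 in CCT4, AF129075.5 in CCT8 and CTD-2256P15.4 at CCT5 had 0.0201 to 1.81 FPKM.

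Of the 6 pseudogenes named for a subunit, CCT6P1, a duplicated copy, was the most abundant, with 10.4 and 9.70 FPKM in the GAP43 libraries and 9.99 and 9.34 FPKM in the Control libraries. CCT6P3 had 1.21 and 1.88 FPKM in the GAP43 libraries, against 1.17 and 1.03 FPKM in the Control libraries. CCT7P2, a retrocopy of CCT7, had 2.56 and 2.89 FPKM, against 1.89 and 2.21 FPKM in the Control libraries. CCT6P3 and CCT7P2 lay above the Control libraries in both GAP43 libraries, opposite to CCT6A and CCT7 (limma, unadjusted p = 0.308 and 0.167). Of all genes tested, 17.1% lay above in both GAP43 libraries. CCT5P1, CCT7P1 and CCT8P1 were at 0.219 FPKM or less. How reads that fit a gene and its copy were counted is not given in the sources used here.

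Prefoldin, the complex of 6 subunits that captures nascent actin and tubulin and passes them to TRiC, had both GAP43 libraries below both Control libraries for all 6 of its genes, against 57.8% of the abundant protein-coding genes and 24.1% of all genes tested. Not all 6 averaged 30 FPKM or more, so the abundant set does not match them as it matches the subunit genes. The median over the 6 genes was a log2 fold change of -0.48. Against the Control mean it was -0.22 for the first GAP43 library and -0.80 for the other. PFDN2, a beta-type subunit, had 120 and 75.2 FPKM in the GAP43 libraries, against 146 and 194 FPKM in the Control libraries. It was the 1 of 6 that passed an unadjusted p under 0.05 (limma, log2 fold change -0.81, standard error 0.31, unadjusted p = 0.0360, adjusted p = 0.692), and it did not pass without Control replicate 1, Control replicate 2 or GAP43 replicate 2 (unadjusted p = 0.0681, 0.249 and 0.0776), nor when genes of low FPKM were kept in the fit (unadjusted p = 0.0618). VBP1, an alpha-type subunit, had 45.3 and 20.5 FPKM in the GAP43 libraries, against 46.5 and 47.2 FPKM in the Control libraries, so that GAP43 replicate 1 was near the Control level.

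Of 3 tested cofactors of TRiC related to phosducin and thioredoxin, none passed. PDCL3 had 21.5 and 9.51 FPKM in the GAP43 libraries and 24.3 and 21.0 FPKM in the Control libraries, and TXNDC9 had 9.29 and 6.10 FPKM against 9.22 and 11.0 FPKM, so both overlapped between the groups. PDCL, which helps TRiC to assemble G protein beta subunits, had a log2 fold change of 0.01, and PDCL2 was above 0 in 1 library only, at 0.0527 FPKM. Of the chaperonin-like genes of the Bardet-Biedl group, MKKS had 13.5 and 9.40 FPKM in the GAP43 libraries, against 14.9 and 15.9 FPKM in the Control libraries (limma, unadjusted p = 0.0929), and BBS10 had 5.68 and 5.72 FPKM, against 4.64 and 5.61 FPKM (unadjusted p = 0.454). The mitochondrial chaperonin HSPD1 had 267 and 222 FPKM in the GAP43 libraries, against 334 and 350 FPKM in the Control libraries. Its partner HSPE1 had 22.6 and 22.1 FPKM, against 31.7 and 27.1 FPKM. Both thus lay below the Control libraries without passing (limma, unadjusted p = 0.0953 and 0.0819).

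Among the proteins that TRiC folds, 1 of 12 tested actin and tubulin genes and 1 of 10 tested WD40-repeat genes passed an unadjusted p under 0.05, both lower, against 2.84% of all genes tested and 5.35% of the abundant protein-coding genes. TUBA1B, a main alpha-tubulin, had 53.8 and 44.0 FPKM in the GAP43 libraries, against 75.9 and 68.0 FPKM in the Control libraries (limma, log2 fold change -0.55, standard error 0.21, unadjusted p = 0.0371, adjusted p = 0.692). MLST8, a WD40 protein of both mTOR complexes, had 13 and 10.4 FPKM in the GAP43 libraries, against 17.1 and 16.7 FPKM in the Control libraries (limma, log2 fold change -0.51, standard error 0.18, unadjusted p = 0.0303, adjusted p = 0.692). Both calls were lost without either Control library (unadjusted p = 0.287 and 0.162 for TUBA1B and 0.170 and 0.143 for MLST8), and that of MLST8 also without GAP43 replicate 2 (unadjusted p = 0.0584). By voom neither passed (unadjusted p = 0.0501 for TUBA1B and 0.0525 for MLST8), and neither did with the replicate number as a block (unadjusted p = 0.0980 and 0.0577). TUBA1B also missed at equal total FPKM (unadjusted p = 0.0503). TUBA1C had 68.5 and 40.8 FPKM in the GAP43 libraries, against 84.5 and 86.6 FPKM in the Control libraries (unadjusted p = 0.0508). It passed under several other settings, with unadjusted p = 0.0359 among genes of at least 10 FPKM, 0.0412 over protein-coding genes alone, 0.0432 by voom, 0.0466 with the replicate block, 0.0468 with a constant prior variance and 0.0478 by median-ratio scaling, and it did not pass without GAP43 replicate 2 or either Control library. TUBA1B and TUBA1C are near-identical in coding sequence, so their reads can be split between them. The cytoplasmic actin ACTB had 1006 and 592 FPKM in the GAP43 libraries, against 1029 and 1068 FPKM in the Control libraries, and GAP43 replicate 1 was close to the Control level.

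The median log2 fold changes of the lists were -0.40 for actins and tubulins, -0.25 for WD40-repeat genes and -0.20 for the 5 tubulin folding cofactors, of which TBCA had 46.6 and 29.7 FPKM in the GAP43 libraries, against 53.6 and 61.3 FPKM in the Control libraries (limma, unadjusted p = 0.0568). RACK1, listed as GNB2L1, is a WD40 protein of the ribosome and had 186 and 124 FPKM in the GAP43 libraries, against 204 and 242 FPKM in the Control libraries (unadjusted p = 0.101). Of 11 genes of HSP70, HSP90, their partners and a heat shock transcription factor, none passed and the median was -0.22. The chaperones among them work before TRiC. The constitutive HSPA8 and HSP90AB1 had log2 fold changes of -0.33 and -0.39, within the range of the TRiC genes. The heat-inducible pair HSPA1A and HSPA1B lay on the other side of 0. HSPH1 of the same list did too (limma, unadjusted p = 0.356). It had 30.9 and 30.1 FPKM in the GAP43 libraries, against 28.4 and 25.3 FPKM in the Control libraries. HSPA1B had 18.0 and 18.6 FPKM in the GAP43 libraries, against 15.7 and 10.6 FPKM in the Control libraries (unadjusted p = 0.0741), and HSPA1A had 16.1 and 16.1 FPKM, against 15.4 and 9.30 FPKM (unadjusted p = 0.159). They are near-identical copies, and Control replicate 2 was the low library for both. HSPA1B passed at equal total FPKM (unadjusted p = 0.0483), by voom (unadjusted p = 0.0289) and without Control replicate 1 (unadjusted p = 0.0470), and HSPA1A in the last of these only (unadjusted p = 0.0447).

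**Figure D5:**
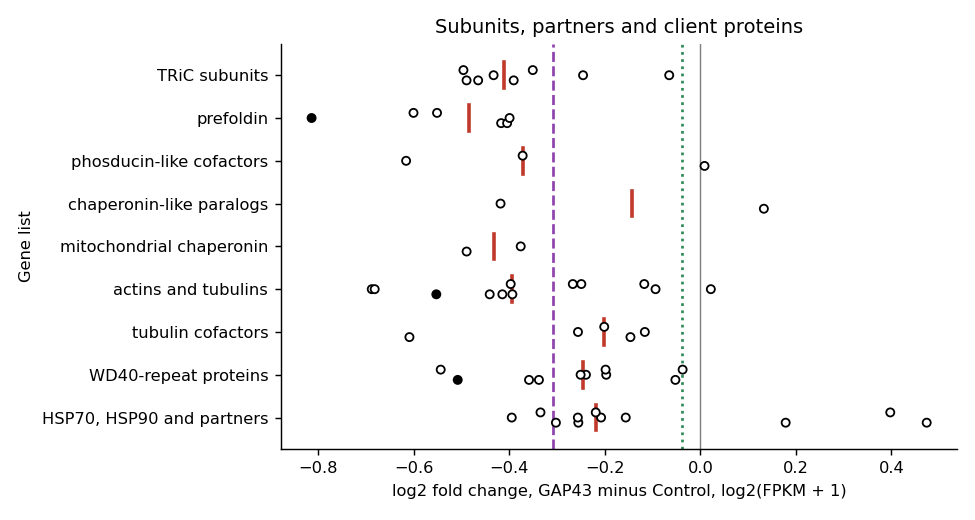
Log2 fold change, GAP43 minus Control (x axis), of every tested gene of each list (y axis), with filled points at an unadjusted p under 0.05 and a red bar at the median of the list. The medians of 5 lists, prefoldin (-0.48), the mitochondrial chaperonin (-0.43), TRiC (-0.41), actins and tubulins (-0.40) and the cofactors (-0.37), lie left of the dashed line at -0.31 for protein-coding genes of at least 30 FPKM, and PFDN2, TUBA1B and MLST8 are the 3 filled points. All 3 tested cofactors averaged below 30 FPKM, as did HSPE1 and some of the prefoldin and tubulin genes, so the line is not matched to their abundance.

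Across the 4 libraries, the genes whose pattern lay closest to the mean of the 8 subunits were searched among 4432 protein-coding genes that averaged 10 FPKM or more. The measure was the Euclidean distance between log2(FPKM + 1) values centered on each gene's own mean. The closest 5 were GNPNAT1, an enzyme of UDP-N-acetylglucosamine synthesis, SUCLG1, a subunit of succinyl-CoA ligase, OGFOD1, a prolyl hydroxylase of a ribosomal protein, PNPT1, the polynucleotide phosphorylase of mitochondria, and the phosphatase PTPN11, at distances of 0.02 to 0.03. GNPNAT1 had 14.9 and 11.1 FPKM in the GAP43 libraries, against 16.4 and 17.9 FPKM in the Control libraries. The subunits themselves lay at distances of 0.06 (CCT5) to 0.32 (TCP1) from their own mean, with 49 candidate genes closer than CCT5 and 2143 closer than TCP1. With 4 libraries such likeness is a description of these values.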

How the data were processed

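Poly(A) RNA of SW620 cells was primed with random hexamers and sequenced as 150 bp paired ends. The authors deposited FPKM values per gene and library, with the length of each gene model. Per the submitters' notes, TopHat2 2.0.13, Cuffdiff and Cufflinks 1.1 were used with hg19 as the build. However, all 8 subunit genes have the start and end of GENCODE release 29, so positions are those of GRCh38. Which annotation was counted, and whether by strand, is not given in the sources used here.

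Products of FPKM and model length were multiples of 1 step in each library (whole within 0.01 for 100% of values above 0), which gave the recovered fragments. Genes that averaged 1 FPKM or more were compared as log2(FPKM + 1), a scale that understates the fold change of low genes, by the 2-sided test of limma 3.58.1 under R 4.3.3, with a trended prior of 4.22 degrees of freedom and Benjamini-Hochberg adjustment over all genes tested. All 8 subunit genes passed this filter. The fit was tested on simulated data in which each gene varied independently, without a shift shared by the genes of a library. Tables were made with Python 3.11.15 and pandas 2.3.3, exact tests with scipy 1.17.1 and figures with matplotlib 3.10.9. Promoter sequences are those of RefSeq on GRCh38.p14.

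The subunit genes and the lists were chosen with earlier results of these data known. Named genes are GAP43, the subunits, the genes of the lists that passed an unadjusted p under 0.05 or up to 2 of each list with the smallest p, overlapping genes and pseudogenes of the subunits, and the 5 closest patterns. PDCL, PDCL2, CCT6B, VBP1, TUBA1C, ACTB, RACK1, HSPA8, HSP90AB1, HSPH1, the marker genes and the neighbors with divergent starts were named in addition after their values were seen. The fold changes of the subunit genes, their median and spread, and the counts of calls were recomputed with a pseudocount of 0.1 FPKM, no filter or a filter at 10 FPKM, equal total FPKM, median-ratio scaling, a constant prior variance, voom, a replicate block, protein-coding genes alone, each library left out and, added after seeing the data, a crossed block and lengths of GENCODE. The paper's other assays were not analysed here.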

Additional observations from a re-analysis of the deposited data

How the results depend on the processing

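Over 14 alternatives the log2 fold change stayed below 0 for 7 of the 8 subunit genes. TCP1 was the exception, at 0.052 with equal total FPKM, 0.083 by voom on recovered fragments and -0.27 to 0.14 without 1 library, 0.14 being without GAP43 replicate 2. With equal total FPKM the median of all genes was 0.07 and by voom 0.10, against -0.04 as deposited, and the median of the members lay -0.36 and -0.37 from these, against -0.37 as deposited. This gap was -0.22 at a mean of at least 10 FPKM, -0.56 without GAP43 replicate 1 and -0.18 without GAP43 replicate 2. The number of members lower at an unadjusted p under 0.05 was 0, 1 with a constant prior variance, and 0 to 6 without 1 library, the 6 being without GAP43 replicate 1. The median of the members ran from -0.62 to -0.20 without 1 library. As a background for the lists, 383 of all 13507 genes tested were lower, and 365 with a constant prior variance. At a mean of at least 10 FPKM 286 of 4668 genes were lower, and over protein-coding genes alone 418 of 10692. The range over all genes without 1 library is given below. The other chaperonin lists had 51 tested genes, and 42 at a mean of at least 10 FPKM. Of the 51 list genes, 3 were lower and 0 higher. The lower numbered 5 with a mean of at least 10 FPKM, 5 with a constant prior variance, 5 over protein-coding genes alone and 0 to 28 without 1 library. The higher numbered 1 with equal total FPKM, 1 by voom and 0 to 2 without 1 library. The coefficient of variation among the subunit levels was 41.2% in FPKM and 36.3% per kilobase of transcript. No RefSeq protein or transcript lengths were used here, so levels on those 2 lengths were not run, and GENCODE lengths, chosen after seeing the data, took their place. The cause of these changes was not tested.

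Replicate numbers appear in the labels of both groups, but nothing says that they mark a shared culture or day, and the deviations of the replicates numbered 1 had a correlation of -0.16 across genes. With the replicate block no member passed (lowest unadjusted p = 0.175 by limma), 3 list genes were lower and 0 higher, and 152 of all genes passed an adjusted p. With the crossed replicate block, chosen after seeing the data, 0 members and 7 list genes were lower, and 0 of all genes passed an adjusted p.

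Over all genes tested, 383 lower and 412 higher genes at an unadjusted p became 676 and 1070 without a filter, 213 and 577 with equal total FPKM, 286 and 69 at a mean of at least 10 FPKM, 187 and 612 by voom, 380 and 655 with the replicate block, 737 and 668 with the crossed one and 418 and 223 over protein-coding genes alone. Without 1 library they ran from 77 to 2513 lower and 270 to 1565 higher, with 15 at an adjusted p without Control replicate 1.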

Other observations

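Several subunit genes start next to a gene that is read in the opposite direction, and the values of these neighbors were looked at after those of the subunits. MRPL18, a protein of the mitochondrial ribosome, starts 63 bases from TCP1 in the table, inside the TCP1 window printed above. It had 102 and 79.5 FPKM in the GAP43 libraries, against 112 and 105 FPKM in the Control libraries (limma, log2 fold change -0.27, unadjusted p = 0.275), so its groups did not overlap where those of TCP1 did. PSPH, the last enzyme of serine synthesis, starts 26 bases from CCT6A and had 30.4 and 18.9 FPKM in the GAP43 libraries, against 25.1 and 45.5 FPKM in the Control libraries (unadjusted p = 0.215). It spread far more between replicates than CCT6A.

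FAM173B starts 24 bases from CCT5 and had 13.3 and 13.7 FPKM in the GAP43 libraries, against 13.4 and 15.2 FPKM in the Control libraries (limma, unadjusted p = 0.667). PRADC1 starts 182 bases from CCT7 and had 8.93 and 8.12 FPKM in the GAP43 libraries, against 11.5 and 8.68 FPKM in the Control libraries (unadjusted p = 0.315). With MRPL18, PSPH and COMMD1, these are the 5 neighbors with a start within 1000 bases of that of a subunit gene. Only MRPL18 had an FPKM near that of its subunit gene.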
